A study of Mus musculus with 12 samples.

Results

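The genes of de novo fatty acid synthesis, with *Fasn* as the central enzyme, were followed through the lungs of mice on 2 diets, breathing oxygen or room air. The 10 genes were taken from the deposited expression table by gene symbol: *Fasn*, *Acaca*, *Acacb*, *Acly*, *Acss2*, *Scd1*, *Scd2*, *Srebf1*, *Mlxipl* and *Thrsp*. All 10 were found among the 20793 entries of the table, and 9 passed the filter on low values (RPKM of at least 1 in at least 3 libraries); *Mlxipl* did not. The 12 libraries were made from whole lung of C57BL/6J mice, an inbred strain, in 4 groups of 3 that combine 2 diets with 2 exposures. The diets held 60% or 10% fat and were given for 12 weeks, and the exposures were oxygen at more than 95% or room air; the groups are 60% fat in room air, 10% fat in room air, 60% fat under oxygen and 10% fat under oxygen. The study's title places the comparison between diet-induced obesity and hyperoxic lung injury. The sources used here give neither the length of the exposure nor the animal behind each library, so p-values measure the spread between these samples, and that spread may be technical.

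Fatty acid synthesis turns acetyl-CoA into palmitate in the cytosol. ATP citrate lyase (*Acly*) and acetyl-CoA synthetase (*Acss2*) supply acetyl-CoA, acetyl-CoA carboxylase (*Acaca*, *Acacb*) makes malonyl-CoA from it, fatty acid synthase (*Fasn*) builds the chain, and stearoyl-CoA desaturases (*Scd1*, *Scd2*) put in a double bond. The transcription factors SREBP-1 (*Srebf1*), a membrane-bound precursor released by cleavage, and ChREBP (*Mlxipl*), which responds to carbohydrate, drive the genes of the pathway in liver and fat, where *Thrsp* encodes a small protein that goes with active lipogenesis. In the lung the pathway is best known in alveolar type 2 epithelial cells, which make the palmitate-rich phospholipids of surfactant.

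Values were RPKM (reads scaled to transcript length and to the reads of the library), so that levels can be compared between genes. Rough depths, read from the steps between low values, were 20.6 to 28.2 M reads per library. At that depth *Fasn* rested on about 3637 to 21006 reads per library, *Acacb* on 200 to 836, *Mlxipl* on 26 to 102 and *Thrsp* on 10 to 548. Lung markers were high in all libraries: the summed RPKM of 6 of them ran from 26919 to 214132. Most of that sum was *Scgb1a1*, at 14441 to 179661 RPKM. Of 6 hepatocyte markers, *Serpina1c* and *Fgb* were listed at 0 in all 12 libraries and the 6 summed to 1.61 to 7.57 RPKM. A pair of the libraries on 10% fat in room air stood apart in marker sums, replicate 2 in adipocyte and replicate 3 in alveolar macrophage markers; their values stand beside the genes they touch. Positions are as the table gives them, in mm8 or mm9; the submitters' processing notes name both builds without saying which holds.

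Under oxygen most of the 10 genes stood lower than in room air, on both diets. On 60% fat, 8 of the 9 tested members fell (limma, adjusted p under 0.05 over 13324 genes) and none rose; over all tested genes 36.5% fell and 26.3% rose. On 10% fat, 6 of 9 fell and none rose, against 34.2% lower and 25.3% higher over all tested genes. *Fasn*, *Acaca*, *Acacb*, *Acly*, *Scd1* and *Thrsp* fell on both diets, 6 of 9, where 29.8% of all tested genes did. The median log2 change of the 9 tested members was −0.68 on 60% fat and −0.76 on 10% fat; over all tested genes it was −0.09 and −0.08. The oxygen libraries lay below the room air libraries with no overlap for 8 of the 9 on 60% fat and for 6 of 9 on 10% fat, beside 38.2% and 38.8% of the 13310 genes with all values.

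**Figure D1:**
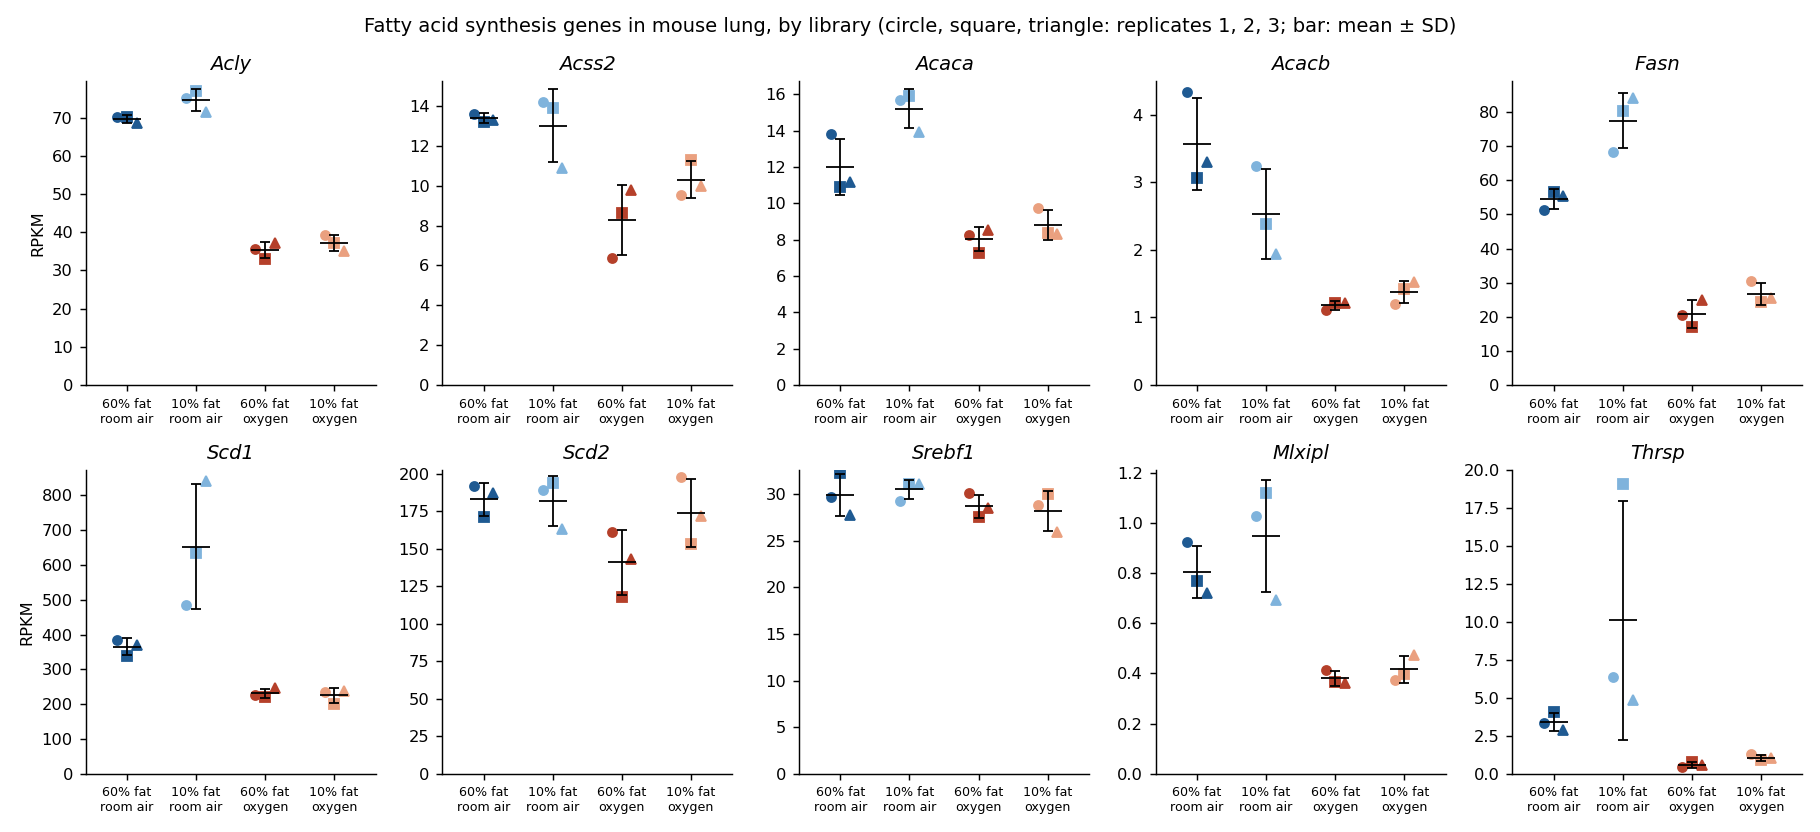
RPKM of the 10 genes in each of the 12 libraries, with a linear axis from 0 in each panel; symbols are replicates 1 to 3, bars the group mean ± SD (n = 3). In 7 panels all 6 oxygen libraries lie below all 6 room air libraries; *Srebf1* stays between 25.9 and 32.3 RPKM throughout.

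The suppliers of acetyl-CoA come first in the pathway. *Acly* (chromosome 11, 100337666 to 100389314) cleaves citrate exported from mitochondria. It measured 70.2, 70.3 and 68.6 RPKM on 60% fat in room air and 75.2, 77.1 and 71.5 RPKM on 10% fat in room air. Under oxygen it measured 35.7, 33.1 and 37.3 RPKM on 60% fat and 39.3, 37.2 and 35.1 RPKM on 10% fat. All 6 oxygen libraries were far below all 6 in room air. The means were 69.7 ± 0.990 and 35.4 ± 2.11 RPKM on 60% fat (SD, n = 3), a log2 change of −0.97 ± 0.07 (SE; limma adjusted p = 2.96e-07), and 74.6 ± 2.81 and 37.2 ± 2.09 RPKM on 10% fat, a change of −0.99 ± 0.07 (limma adjusted p = 3.24e-07). *Acly* thus fell 1.96-fold and 1.99-fold, and it had the smallest SE of the 9.

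*Acss2* (chromosome 2, 155343779 to 155388479) makes acetyl-CoA from acetate. In room air its libraries measured 13.6, 13.2 and 13.3 RPKM on 60% fat and 14.2, 13.9 and 10.9 RPKM on 10% fat. Under oxygen they measured 6.36, 8.64 and 9.80 RPKM on 60% fat and 9.52, 11.3 and 10.0 RPKM on 10% fat. The groups were apart on 60% fat and overlapped on 10% fat, where replicate 3 in room air was the low one. *Acss2* fell on 60% fat by 0.68 ± 0.14 on the log2 scale (limma adjusted p = 0.00117). On 10% fat the change was −0.32 ± 0.14 (limma adjusted p = 0.0733); without replicate 3 of 10% fat in room air the adjusted p was 0.0252, and over all alternatives run it was 0.0252 to 0.209.

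Acetyl-CoA carboxylase has 2 genes: *Acaca* for the cytosolic form that feeds synthesis and *Acacb* for the form at the mitochondrial surface, best known in heart and skeletal muscle, whose malonyl-CoA limits fatty acid import. *Acaca* (chromosome 11, 84008940 to 84215153) measured 13.8, 10.9 and 11.2 RPKM on 60% fat and 15.7, 15.9 and 13.9 RPKM on 10% fat in room air. The oxygen libraries measured 8.28, 7.27 and 8.55 RPKM on 60% fat and 9.74, 8.34 and 8.30 RPKM on 10% fat. All 6 oxygen libraries were below the lowest room air library. *Acaca* fell by 0.54 ± 0.11 (limma adjusted p = 0.000861) on 60% fat and by 0.76 ± 0.11 (limma adjusted p = 8.29e-05) on 10% fat, or 1.46-fold and 1.69-fold.

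*Acacb* (chromosome 5, 114615527 to 114700767) was the scarcer of the pair. It measured 4.34, 3.07 and 3.30 RPKM on 60% fat and 3.25, 2.39 and 1.94 RPKM on 10% fat in room air. In oxygen the values were 1.11, 1.22 and 1.21 RPKM on 60% fat and 1.20, 1.42 and 1.53 RPKM on 10% fat. The 6 oxygen libraries were again below the 6 in room air, and on each diet replicate 1 was the highest in room air and the lowest under oxygen. *Acacb* fell by 1.27 ± 0.16 on the log2 scale on 60% fat (limma adjusted p = 3.28e-05) and by 0.67 ± 0.16 on 10% fat (limma adjusted p = 0.00394). With quantile normalization the change on 10% fat was −0.37 and its adjusted p 0.0633, so that call was lost.

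Cardiac muscle markers, like *Acacb*, were lower under oxygen. Their summed RPKM (10 genes, none at 0 in all libraries of a group) was 596 to 672 on 60% fat and 415 to 550.1 on 10% fat in room air, and 35.2 to 81.5 and 60.7 to 132 under oxygen. All 10 fell on both diets, where 29.8% of all tested genes did. Within a group the sum and *Acacb* did not always run together. On 60% fat under oxygen, replicate 2 had the lowest sum, 35.2 RPKM, and the highest *Acacb*, 1.22 RPKM. The part of cardiac muscle in the values of *Acacb* was not tested; in whole lung, fewer cells of a type and less RNA per cell cannot be told apart.

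*Fasn* (chromosome 11, 120667272 to 120685861) encodes the multienzyme that makes palmitate. In room air it measured 51.2, 56.7 and 55.5 RPKM on 60% fat and 68.4, 80.2 and 84.0 RPKM on 10% fat. Under oxygen the levels were 20.4, 17.0 and 25.0 RPKM on 60% fat and 30.4, 24.3 and 25.5 RPKM on 10% fat. The lowest room air library was above the highest oxygen library by a wide margin, and in room air all 3 libraries on 60% fat were below all 3 on 10% fat. The means on 60% fat were 54.5 ± 2.87 in room air and 20.8 ± 4.01 RPKM under oxygen (SD, n = 3), a 2.61-fold fall (log2 change −1.39 ± 0.13, limma adjusted p = 2.67e-06). On 10% fat they were 77.5 ± 8.15 and 26.7 ± 3.23 RPKM, a 2.87-fold fall (−1.52 ± 0.13, limma adjusted p = 1.73e-06). Among the tested genes *Fasn* dropped from above 88.6% and 92.6% of them in room air (60% and 10% fat) to above 68.6% and 74.9% under oxygen.

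The promoter of *Fasn* is shown since it is the gene around which the set is built, and those of *Acly* and *Thrsp* because their falls were the most tightly measured and the largest of the members. The sequences are from RefSeq on GRCm38.p6, 250 bases before to 50 after the start, written 5′ to 3′ on the gene's strand; 8 of the 10 members had an entry, 11 entries in all, and *Scd1* and *Scd2* had none. Capitals mark CCAAT and GGGCGG, in either orientation.
Fasn promoter, chr11:120824498-120824797, minus strand: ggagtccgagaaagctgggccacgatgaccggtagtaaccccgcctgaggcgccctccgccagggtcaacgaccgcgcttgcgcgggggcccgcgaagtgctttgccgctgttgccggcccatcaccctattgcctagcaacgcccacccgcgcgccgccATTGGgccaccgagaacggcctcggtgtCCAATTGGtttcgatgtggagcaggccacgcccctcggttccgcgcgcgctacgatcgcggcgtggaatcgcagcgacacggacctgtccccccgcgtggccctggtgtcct
Acly promoter, chr11:100527951-100528250, minus strand: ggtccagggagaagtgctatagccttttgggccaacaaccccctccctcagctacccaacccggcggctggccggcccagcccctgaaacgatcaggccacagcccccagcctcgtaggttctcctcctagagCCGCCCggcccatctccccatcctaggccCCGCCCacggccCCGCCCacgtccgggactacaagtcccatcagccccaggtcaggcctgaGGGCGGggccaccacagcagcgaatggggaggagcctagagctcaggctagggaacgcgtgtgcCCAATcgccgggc
Thrsp promoter, chr7:97417501-97417800, minus strand: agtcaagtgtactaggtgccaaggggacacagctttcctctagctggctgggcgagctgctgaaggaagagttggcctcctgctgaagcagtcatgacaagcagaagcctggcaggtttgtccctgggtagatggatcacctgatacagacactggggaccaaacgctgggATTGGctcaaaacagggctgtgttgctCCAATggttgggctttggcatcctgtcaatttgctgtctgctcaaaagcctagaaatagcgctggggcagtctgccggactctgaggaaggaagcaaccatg
The *Fasn* window holds CCAAT 3 times, 2 of them overlapping in opposite orientation; the *Thrsp* window holds it 2 times, and the *Acly* window 1 time beside 4 GGGCGG. The letters CCAAT are the core of the site of the factor NF-Y, and GGGCGG those of Sp1, factors known to work beside SREBP on lipogenic promoters. Of 32851 mouse promoters of the same length, 37.4% hold CCAAT and 35.7% hold GGGCGG. The letters TCACNCCAC, a form of the sterol response element that SREBP binds, and the E-box CACGTG were in none of these 3 windows; 1.24% and 7.15% of all promoters hold them. Among the other entries 1 of *Mlxipl* holds TCACNCCAC and another of *Mlxipl* holds CACGTG. A match is a run of letters, not a measured site, and a window without the exact letters may still hold a site of another form. No binding was measured here.

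Over the 12 libraries the level of *Fasn*, on the log2(RPKM + 0.5) scale, was most like that of *Lamp3* (Pearson r 0.984), *Sftpa1* (0.983), *Dnajc3* (0.982), *Sgpp2* (0.980) and *Vipr1* (0.978). *Lamp3* and *Sftpa1*, a lamellar body protein and a surfactant protein, are type 2 cell markers, and *Dnajc3* is a chaperone of the endoplasmic reticulum. These r values are descriptions of libraries that fall into an oxygen and a room air cluster, so the difference between exposures that genes share enters them. Among the members *Acly* came closest to *Fasn* (0.968), followed by *Acaca* (0.947), *Scd1* (0.926) and *Thrsp* (0.918), and *Srebf1* was the least like it (0.526). After the group means were taken out, the likest genes were *Nucb2* (0.946), *Dexi* (0.945), *Sorcs2* (0.914), *Car13* (0.901) and *Pqlc2* (0.878). On that scale *Acly* had 0.610 and *Scd1* 0.552, *Thrsp* 0.0452, and *Acacb* ran the other way at −0.568.

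Markers of alveolar type 2 cells moved with *Fasn*, *Acly* and *Scd1*. The summed RPKM of 12 of them (none at 0) was 25482 to 37775 on 60% fat and 25557 to 34453 on 10% fat in room air. Under oxygen it was 11018 to 14307 and 13799 to 17817. Most of each sum was *Sftpc*, on 60% fat at 20649 to 31811 RPKM in room air and 8603 to 11296 RPKM under oxygen. Of the 12 markers, 11 fell and none rose on 60% fat, with a median log2 change of −1.25. On 10% fat 10 fell and none rose, with a median of −1.11. Over all tested genes 36.5% fell on 60% fat and 34.2% on 10% fat. The part of these markers in the change of the synthesis genes was not tested.

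**Figure D2:**
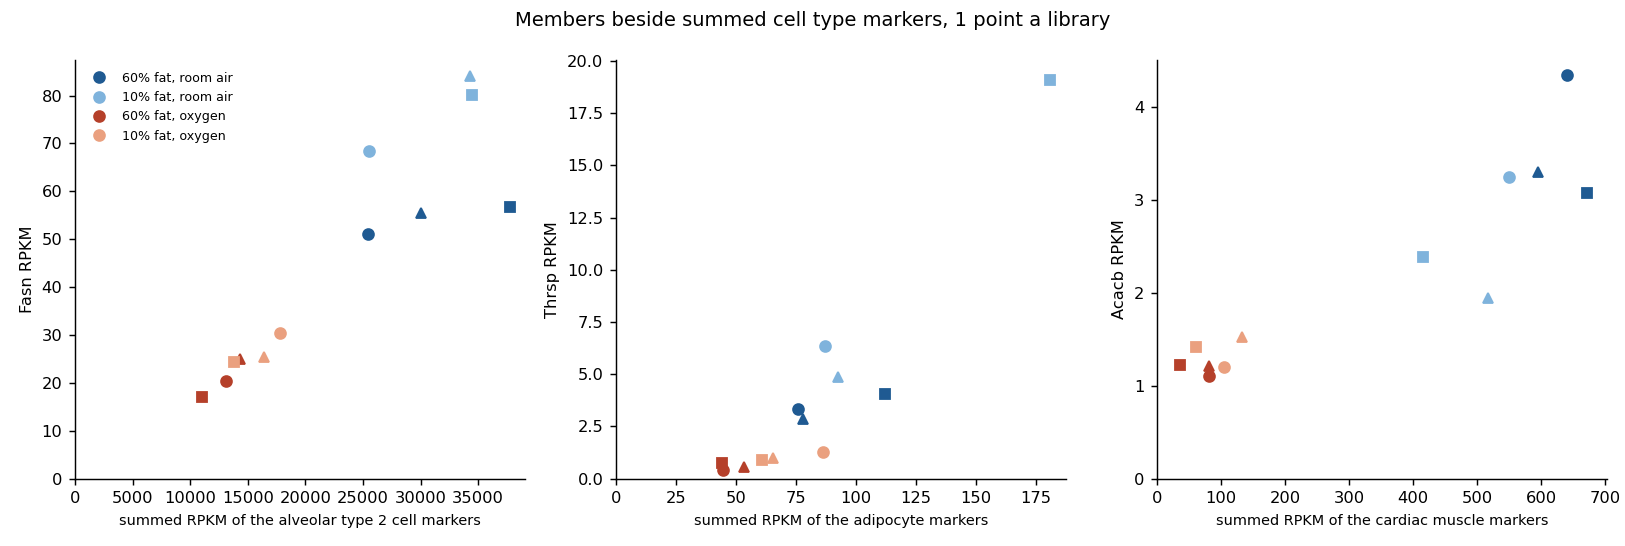
RPKM of *Fasn*, *Thrsp* and *Acacb* (vertical) against the summed RPKM of the alveolar type 2 cell, adipocyte and cardiac muscle markers (horizontal), 1 point a library, linear axes from 0. The type 2 cell sum is mostly *Sftpc*. The highest *Thrsp* library, at 19.1 RPKM, is also the one with the highest adipocyte sum, 181 RPKM; in the other panels the oxygen libraries form a low cluster in both measures.

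The desaturases make oleate and palmitoleate from saturated chains. *Scd1* (chromosome 19, 44468940 to 44482199) was the most abundant of the 10 genes in every group, above 97.3% to 99.3% of the tested genes. In room air it measured 385, 338 and 371 RPKM on 60% fat and 484, 635 and 842 RPKM on 10% fat. Under oxygen it measured 227, 220.0 and 246 RPKM on 60% fat and 236, 201 and 239 RPKM on 10% fat. The 10% fat libraries in room air stood above all others and were the most spread (mean 653 ± 179.6 RPKM, SD, n = 3), while the 2 diets lay in one range under oxygen. *Scd1* fell 1.58-fold on 60% fat (log2 change −0.66 ± 0.16, limma adjusted p = 0.00292) and 2.83-fold on 10% fat (−1.50 ± 0.16, limma adjusted p = 7.24e-06). Without replicate 3 of 10% fat in room air the latter was −1.30 ± 0.12.

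That library, with 842 RPKM of *Scd1*, also had the highest sum of 11 alveolar macrophage markers, 6351 RPKM, against 607 to 2634 RPKM in the other 11. The sum there was mostly *Chi3l3*, a chitinase-like protein of macrophages, at 5793 RPKM. *Marco*, *Itgax*, *Mrc1* and *Atp6v0d2* were also highest there, while *Ear1* (31.4 RPKM) and *Fabp1* (17.5 RPKM) were the lowest of their group. The same library was the highest for *Fasn* (84.0 RPKM). Of the type 2 cell markers, *Sftpa1* (2113 RPKM), *Sftpd* (1264), *Slc34a2* (706), *Lamp3* (293), *Lpcat1* (149) and *Cebpa* (62.0) were highest there. The rest of that list, *Sftpc* (27276), *Abca3* (81.6), *Sftpb*, *Napsa*, *Etv5* and *Nkx2-1*, were not. The part of either set of markers in the level of *Scd1* was not tested.

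*Scd2* (chromosome 19, 44368166 to 44381352), the form best known in brain and in the newborn, spanned 118 to 198 RPKM over the 12 libraries. In room air it measured 192, 171 and 187 RPKM on 60% fat and 189.6, 194 and 163 RPKM on 10% fat. The oxygen libraries measured 161, 118 and 143 RPKM on 60% fat and 198, 153 and 172 RPKM on 10% fat. The groups were apart on 60% fat, narrowly, and overlapped on 10% fat. *Scd2* fell on 60% fat by 0.39 ± 0.12 (limma adjusted p = 0.0149); without replicate 2 of 60% fat under oxygen, its lowest library, the adjusted p was 0.0766. On 10% fat the change was −0.07 ± 0.12 (limma adjusted p = 0.652). The 2 genes share some sequence, 3.03% of the 50-base stretches of the longest *Scd1* transcript being also in *Scd2*, and the sources used here do not give how the authors' counting treated such reads; *Acaca* and *Acacb* share none.

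Of the regulators, *Srebf1* (chromosome 11, 60012591 to 60034106) was the steadiest gene of the set. It measured 29.7, 32.3 and 27.8 RPKM on 60% fat and 29.3, 31.1 and 31.1 RPKM on 10% fat in room air. In oxygen the values were 30.1, 27.6 and 28.5 RPKM on 60% fat and 28.8, 30.0 and 25.9 RPKM on 10% fat. All 4 groups overlapped. The change under oxygen was −0.06 ± 0.08 on 60% fat (limma adjusted p = 0.553, 95% interval −0.23 to 0.12) and −0.11 ± 0.08 on 10% fat (limma adjusted p = 0.243, interval −0.28 to 0.06). The intervals leave room for a small fall and not for one of the size seen in *Fasn*; the deposited values are of RNA and say nothing of cleaved SREBP-1 protein, and the table's entry does not part the isoforms of *Srebf1*.

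*Mlxipl* (chromosome 5, 135582761 to 135614252) was near the floor of the measured range. It measured 0.923, 0.770 and 0.723 RPKM on 60% fat and 1.03, 1.12 and 0.694 RPKM on 10% fat in room air. Under oxygen the levels were 0.413, 0.365 and 0.363 RPKM on 60% fat and 0.374, 0.399 and 0.474 RPKM on 10% fat. All 6 oxygen libraries were below all 6 in room air, though only 2 libraries reached 1 RPKM. In the fit with no filter on low values (17715 genes) the log2 change was −0.57 ± 0.11 on 60% fat (limma adjusted p = 0.00142) and −0.65 ± 0.11 on 10% fat (limma adjusted p = 0.000637). On the log2(RPKM + 0.5) scale these understate the change of so low a gene.

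*Thrsp* (chromosome 7, 104561467 to 104566020) had the largest changes of the set. In room air it measured 3.35, 4.06 and 2.86 RPKM on 60% fat and 6.36, 19.1 and 4.87 RPKM on 10% fat. Under oxygen it measured 0.428, 0.772 and 0.548 RPKM on 60% fat and 1.27, 0.879 and 1.01 RPKM on 10% fat. The 4 groups did not overlap in the comparisons of oxygen within a diet or of diet within an exposure, and replicate 2 of 10% fat in room air stood far above its group. *Thrsp* fell by 1.86 ± 0.36 on the log2 scale on 60% fat (limma adjusted p = 0.000702) and by 2.54 ± 0.36 on 10% fat (limma adjusted p = 7.52e-05). With 0.5 added to values this low, those changes come to 3.63-fold and 5.81-fold, while the mean RPKM in room air was 5.88 and 9.62 times that under oxygen. Without that library the change of *Thrsp* on 10% fat was −1.97 ± 0.19.

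The same library had the highest adipocyte marker sum, 181 RPKM, where the other 11 libraries had 44.0 to 112 RPKM (11 markers, none at 0). On 60% fat the sums were 75.7, 112 and 77.8 RPKM in room air and 44.7, 44.0 and 53.2 RPKM under oxygen, and on 10% fat 87.1, 181 and 92.6 RPKM and 86.1, 60.9 and 65.6 RPKM. Single genes weighed much in these sums. *Cfd* made up 87.7 of the 181 RPKM. *Lipe* on 60% fat was at 41.6 to 48.0 RPKM in room air and 13.0 to 14.7 RPKM under oxygen. Of the 10 tested adipocyte markers 4 fell and 3 rose on 60% fat, and 5 fell and 3 rose on 10% fat, while *Thrsp* fell on both. Over all tested genes 36.5% fell and 26.3% rose on 60% fat, and 34.2% and 25.3% on 10% fat. By diet in room air 4 of the 10 had an unadjusted limma p under 0.05, against 12.2% of all tested genes, and 0 passed. *Cfd* (means 13.9 against 45.7 RPKM) and *Retn* (2.94 against 7.39) were lower on 60% fat, and *Lep* (0.723 against 0.236) and *Lipe* (44.1 against 34.2) higher. In sign 5 were lower and 5 higher. The part of fat tissue in the values of *Thrsp* was not tested. Markers of lipofibroblasts, the lipid-holding interstitial cells of the lung, went in both directions under oxygen. On each diet 3 of 8 were higher and 4 lower, to be read beside the oxygen shares of all tested genes given above.

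**Figure D3:**
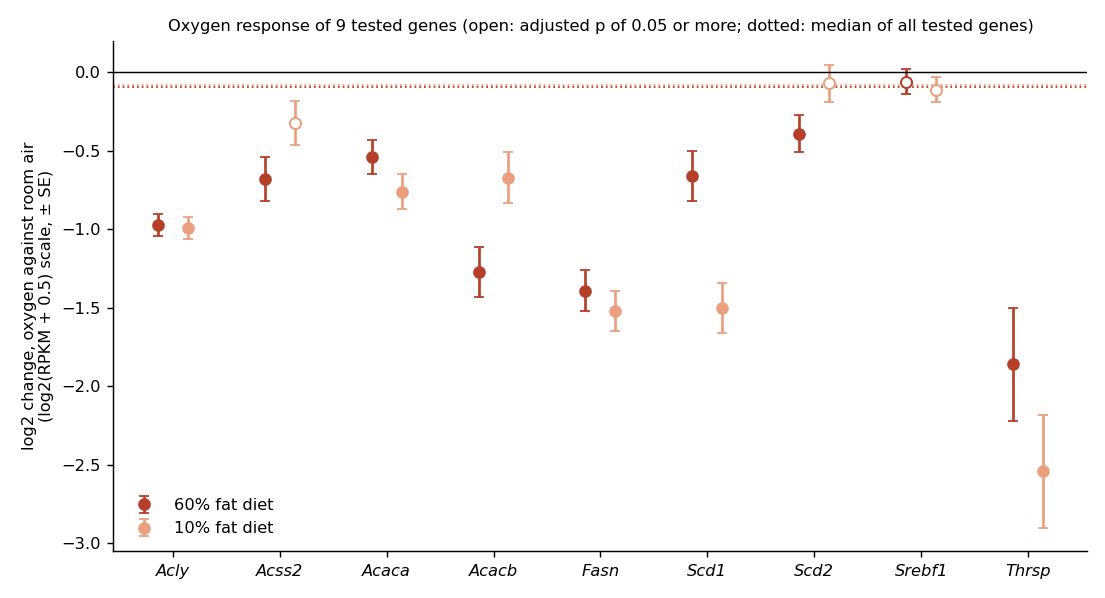
Log2 change under oxygen (± SE) of the 9 tested genes on 60% and 10% fat, on the log2(RPKM + 0.5) scale; open points have an adjusted p of 0.05 or more and dotted lines mark the median of all tested genes. *Fasn*, *Acly* and *Thrsp* lie at −0.97 or lower on both diets, *Srebf1* within 0.11 of 0, and *Scd1* shows the widest gap between the diets, from −0.66 to −1.50.

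The diet comparison asks how 60% fat differs from 10% fat within an exposure. In room air all 3 libraries on 60% fat were below all 3 on 10% fat for 5 of the 9 tested members, *Fasn*, *Acaca*, *Acly*, *Scd1* and *Thrsp*, as for 5.42% of the 13310 genes with all values; none of the 5 passed the test without the replicate block. Without the replicate number in the fit, 0 of 9 members passed the adjusted threshold (limma; 5 of 9 had an unadjusted p under 0.05, against 12.2% of all tested genes), and 0.150% of all tested genes passed. Libraries with the same replicate number within an exposure deviated together, so the number was also fitted as a block within exposure. The labels do not say what a replicate number marks, and the choice of this block rests on these same libraries. With the block 3 of 9 fell, *Fasn*, *Scd1* and *Thrsp*, and none rose, against 3.50% of all tested genes in either direction. Of the other alternatives, none called *Fasn*, sample weights called *Thrsp* (limma adjusted p = 0.0489), and 4 called *Scd1*.

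For *Fasn* the difference in room air was −0.50 ± 0.13 on the log2 scale (95% interval −0.79 to −0.21), 1.41-fold lower on 60% fat, with a limma adjusted p of 0.146 without the block and 0.0364 with it (SE then 0.10). For *Scd1* it was −0.81 ± 0.16, 1.75-fold lower, with adjusted p of 0.0729 and 0.0213 by limma. Its 3 libraries on 60% fat, 338 to 385 RPKM, were all below the lowest on 10% fat, 484 RPKM. For *Thrsp* it was −1.21 ± 0.36, with limma adjusted p of 0.202 and 0.0467, and it rested in part on the 19.1 RPKM library, since without it the difference was −0.64 ± 0.19 (limma adjusted p = 0.282, no block).

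Most alveolar type 2 cell markers had the sign of *Fasn* by diet, though none of the 12 passed (limma). Those with an unadjusted p under 0.05 were 0 in room air, 1 under oxygen and 2 averaged over exposures. Over all tested genes the shares were 12.2%, 8.08% and 10.1%. In room air 11 of 12 were lower on 60% fat in sign, with a median log2 change of −0.12, beside 5862 of all 13324 genes. Under oxygen it was 10 of 12, with −0.20, beside 5535. Averaged over exposures it was 12 of 12, with −0.16, beside 5438. *Sftpc*, the most abundant marker, had a mean of 25644 RPKM on 60% fat and 25205 RPKM on 10% fat in room air. The part of these markers in the diet differences was not tested.

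The other members did not pass in room air with or without the block. *Acaca* was −0.33 ± 0.11 (limma adjusted p = 0.237, blocked 0.0742) and its libraries did not overlap, 10.9 to 13.8 against 13.9 to 15.9 RPKM. *Acacb* had the opposite sign, 0.44 ± 0.16 (limma adjusted p = 0.309, blocked 0.0684), and its libraries overlapped. *Acly* was at −0.10 ± 0.07 (limma adjusted p = 0.616), and the libraries of the 2 diets, 68.6 to 70.3 against 71.5 to 77.1 RPKM did not overlap. *Acss2* (0.05), *Scd2* (0.01) and *Srebf1* (−0.03) were close to 0 on the log2 scale.

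**Figure D4:**
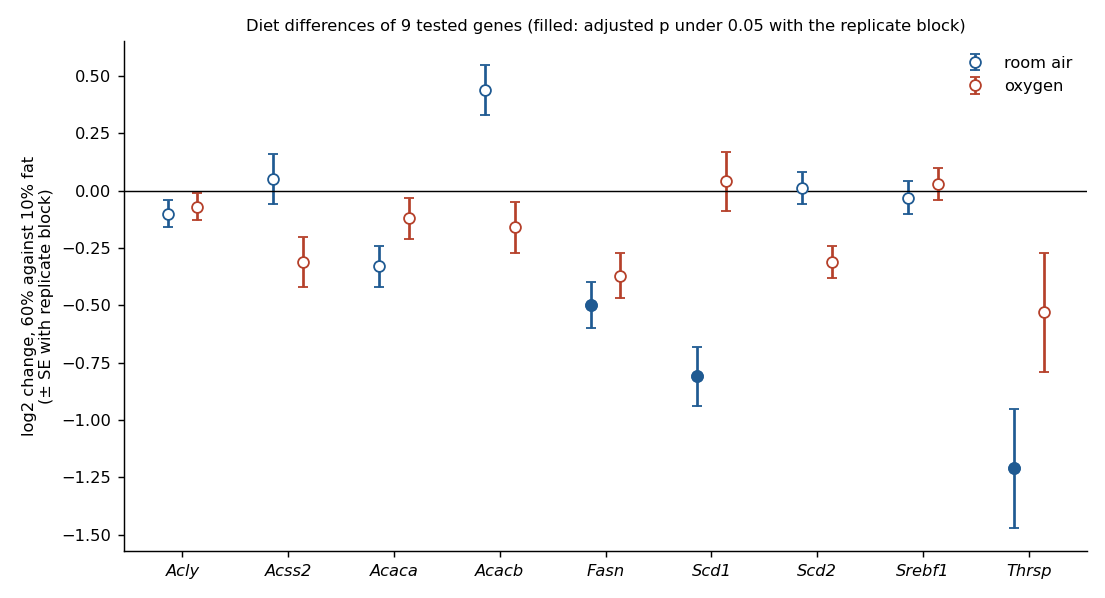
Log2 change of 60% against 10% fat in room air and under oxygen for the 9 tested genes, ± SE of the fit with the replicate block; filled points pass the adjusted threshold in that fit. Filled points are *Fasn*, *Scd1* and *Thrsp* in room air, at −0.50, −0.81 and −1.21; under oxygen none is filled.

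Under oxygen 0 of 9 members passed (limma), beside 0.00751% of all tested genes, and with the block 0 of 9, beside 0.766%. Without the block 3 of 9 had an unadjusted p under 0.05, against 8.08% of all tested genes. *Fasn* was −0.37 ± 0.13 (limma adjusted p = 0.481, blocked 0.133), and *Scd1* 0.04 ± 0.16 (limma adjusted p = 0.981), with an interval of −0.30 to 0.38. *Thrsp* was lower on 60% fat in all 3 libraries, 0.428 to 0.772 against 0.879 to 1.27 RPKM, at a limma adjusted p of 0.770; it was the 1 member of 9 lower with no overlap, beside 6.58% of the genes with all values. Averaged over exposures, 0 of 9 passed without the block (limma), against 0.0225% of all tested genes. An unadjusted p under 0.05 was found for 4 of 9, against 10.1% of all tested genes. With the block *Fasn* alone passed, 1 of 9 against 1.49%, at −0.43 ± 0.07 (limma adjusted p = 0.0312; 0.153 without it).

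Whether the response to oxygen differed between the diets was tested as an interaction: the log2 change under oxygen on 60% fat, less the one on 10% fat. No member passed (0 of 9 by limma, beside 0.0375% of all tested genes), nor did any with the block (0 of 9, beside 1.82%). Without the block 2 of 9 had an unadjusted p under 0.05, against 10.3% of all tested genes. For *Fasn* it was 0.13 ± 0.19 (limma adjusted p = 0.840, interval −0.27 to 0.54). *Scd1* and *Acacb* had the 2 unadjusted p values under 0.05, in opposite directions: 0.84 ± 0.22 for *Scd1* (limma adjusted p = 0.243, blocked 0.0640), whose fall was the larger on 10% fat, and −0.60 ± 0.23 for *Acacb* (limma adjusted p = 0.410, blocked 0.0969), whose fall was the larger on 60% fat. The *Scd1* interaction moved with single libraries of 10% fat in room air: without replicate 1 it was 1.04 ± 0.17 (limma adjusted p = 0.0402), and without replicate 3, the library of 842 RPKM, 0.64 ± 0.17 (limma adjusted p = 0.412).

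Ratios of genes within a library do not depend on the scaling between libraries. They were compared by exact two-sided permutation tests of group labels within the other factor (400 arrangements, smallest possible p 0.005), with 6 comparisons adjusted together. The share of *Scd1* in *Scd1* plus *Scd2* was 66.8%, 66.4% and 66.5% on 60% fat and 71.8%, 76.6% and 83.8% on 10% fat in room air. Under oxygen it was 58.5%, 65.1% and 63.2% on 60% fat and 54.4%, 56.8% and 58.2% on 10% fat. All oxygen libraries had a lower share than all room air libraries. The difference was −12.6 points over both diets (exact permutation p = 0.005, the smallest possible; adjusted 0.0150), −4.31 on 60% fat and −20.9 on 10% fat. By diet the share went in opposite directions in the 2 exposures, −10.9 points in room air and 5.78 under oxygen for 60% against 10% fat, and −2.54 pooled (exact permutation p = 0.505).

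The share of *Acacb* in *Acaca* plus *Acacb* was highest on 60% fat in room air, with 24.0%, 21.9% and 22.7%. It was 17.1%, 13.1% and 12.2% on 10% fat in room air, 11.8%, 14.4% and 12.4% on 60% fat under oxygen and 11.0%, 14.5% and 15.6% on 10% fat under oxygen. The last 3 groups overlapped each other, and the first stood apart. The oxygen difference was −5.24 points (exact permutation p = 0.045, adjusted 0.0675) and the diet difference 3.93 points (exact permutation p = 0.08, adjusted 0.096), so neither passed after adjustment. Cardiac markers were also highest in that group.

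The log2 ratio of *Fasn* to *Srebf1* sets the RNA of the enzyme against that of its regulator. It was 0.786, 0.811 and 0.999 on 60% fat and 1.22, 1.37 and 1.43 on 10% fat in room air, and −0.563, −0.702 and −0.189 on 60% fat and 0.0782, −0.307 and −0.0226 on 10% fat under oxygen. The 4 groups overlapped only under oxygen. Under oxygen the ratio was lower, by a difference of −1.39 (exact permutation p = 0.005, the smallest possible; adjusted 0.0150), with −1.35 on 60% fat and −1.42 on 10% fat. It was also lower on 60% than on 10% fat, by a difference of −0.438 (exact permutation p = 0.01, adjusted 0.0200), with −0.475 in room air and −0.401 under oxygen. That test shuffled labels freely. With libraries paired by replicate number, as the correlations within an exposure allow, all 6 pairs were lower on 60% fat. The exact sign-flip permutation p was then 0.0312, the smallest that 6 pairs can give (adjusted 0.0938 over the 3 ratios). *Srebf1* RNA was near level by exposure and by diet, so the ratio differences largely repeat those of *Fasn* and are not separate evidence. The tests with freely shuffled labels were adjusted over 6 comparisons. The limma tests of *Fasn*, given above, were adjusted over 13324 genes.

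**Figure D5:**
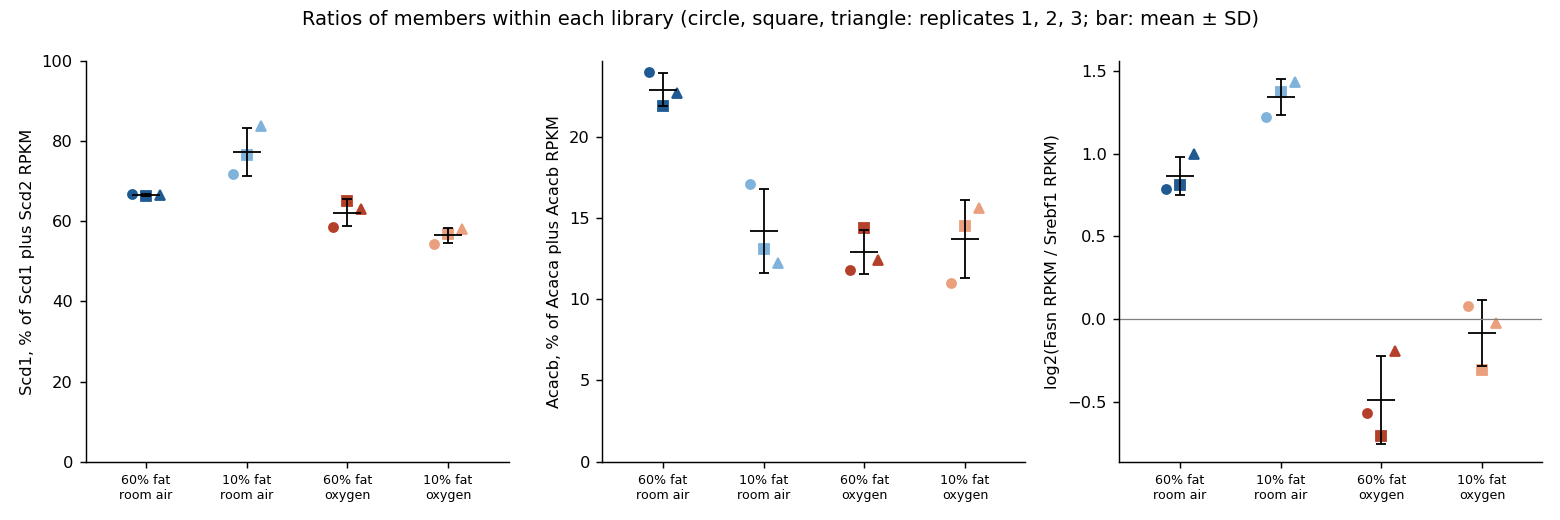
Share of *Scd1* in *Scd1* plus *Scd2*, share of *Acacb* in *Acaca* plus *Acacb* (both % of summed RPKM, axes from 0) and log2 ratio of *Fasn* to *Srebf1*, by library, with group mean ± SD (n = 3). The *Scd1* share spans 71.8% to 83.8% on 10% fat in room air and 54.4% to 58.2% on 10% fat under oxygen; the *Fasn* to *Srebf1* ratio is at 0.786 or above in all room air libraries and at or below 0.0782 under oxygen.

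Genes around the pathway were called about as often as genes at large. Of 62 tested genes in 6 neighbouring lists, 22 fell and 17 rose on 60% fat under oxygen, and 24 fell and 16 rose on 10% fat. Over all tested genes 36.5% fell and 26.3% rose on 60% fat, and 34.2% fell and 25.3% rose on 10% fat, so the counts of the lists that follow are small numbers to be read beside these shares, and the genes are given for their own values. In the list of citrate export and cytosolic NADPH supply, 5 of 8 rose and 2 fell on 60% fat, and 4 rose and 2 fell on 10% fat. *Pgd*, a pentose phosphate dehydrogenase that makes NADPH, rose by 1.65 ± 0.11 (limma adjusted p = 1.39e-07) and 1.39 ± 0.11 on the log2 scale on 60% and 10% fat. Malic enzyme (*Me1*) rose by 0.89 ± 0.08 and 0.63 ± 0.08, and citrate synthase (*Cs*) by 0.47 ± 0.07 and 0.38 ± 0.07. *Pgd*, *Me1* and *Cs* rose while *Fasn*, which uses NADPH, fell, but not all genes of the list rose. Under oxygen the mean of *Idh1* went from 42.1 to 26.6 RPKM on 60% fat and from 43.6 to 26.8 RPKM on 10% fat. *Mdh1* went from 100.5 to 74.7 and from 95.5 to 75.4 RPKM, and *G6pdx* from 27.0 to 26.9 and from 25.0 to 25.8 RPKM. The means of *Slc25a1* and *Aco1* were higher under oxygen on both diets. *Pgd* and *Me1* are also known as genes of the antioxidant response.

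Among factors that process SREBP or act on lipogenic promoters, 5 of 16 fell and 3 rose on 60% fat, and 5 fell and 4 rose on 10% fat, near the shares of all tested genes. The liver X receptor gene *Nr1h3*, which drives *Srebf1* in liver, fell by 1.60 ± 0.14 (limma adjusted p = 1.2e-06) and 1.47 ± 0.14. *Mbtps1*, the protease that makes the first cut in SREBP, fell by 1.03 ± 0.08 (limma adjusted p = 6.36e-07) and 0.78 ± 0.08, and *Usf1*, an E-box factor, by 0.72 ± 0.07 and 0.59 ± 0.07. The genes that rose, named here after their values were seen, were *Mbtps2*, the protease of the second cut (0.59 ± 0.11 and 0.37 ± 0.11), *Scap*, the escort of SREBP (0.28 ± 0.07 and 0.42 ± 0.07), *Pparg* (0.62 ± 0.19 and 0.62 ± 0.19) and, on 10% fat, *Mlxip* (0.44 ± 0.11). The RNA of *Srebf1* itself did not pass the test.

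Of the regulators of acetyl-CoA carboxylase 4 of 10 fell and 2 rose on 60% fat, and 4 fell and 3 rose on 10% fat, again near the shares of all tested genes. AMP kinase phosphorylates and inhibits the carboxylases, and its subunits were mixed. *Prkab1* (0.71 ± 0.08 and 0.96 ± 0.08) and *Prkaa2* (0.56 ± 0.11 and 0.43 ± 0.11) rose. Under oxygen the mean of *Prkag2* went from 12.2 to 9.20 RPKM on 60% fat and from 12.1 to 8.13 RPKM on 10% fat. That of *Prkaa1* went from 13.8 to 12.1 and from 14.5 to 11.3 RPKM. The means of *Prkab2* and *Prkag1* were slightly higher under oxygen on both diets. *Mid1ip1*, a relative of *Thrsp* that promotes carboxylase assembly, fell by 0.57 ± 0.09 and 0.66 ± 0.09. In mitochondrial fatty acid synthesis, a separate pathway that feeds lipoic acid, 2 of 6 rose and 1 fell on 60% fat: *Mecr* (0.64 ± 0.12) and *Ndufab1* (0.28 ± 0.08) rose and *Cbr4* fell (−0.67 ± 0.09). On 10% fat 1 rose and 2 fell.

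Downstream of palmitate, 4 of 9 tested genes of elongation and desaturation fell and 3 rose on 60% fat, and 5 fell and 3 rose on 10% fat, where the shares over all tested genes were 36.5% and 26.3%, and 34.2% and 25.3%. The elongase *Elovl1*, for very long chains, fell by 1.20 ± 0.11 (limma adjusted p = 1.7e-06) and 1.35 ± 0.11, and *Elovl7* rose by 1.17 ± 0.12 and 0.83 ± 0.12, as did *Fads3* by 0.82 ± 0.10 and 0.68 ± 0.10. *Elovl6*, which lengthens palmitate, fell on 10% fat (−0.49 ± 0.15, limma adjusted p = 0.0140) and was at 0.22 ± 0.15 on 60% fat (limma adjusted p = 0.214). Of 13 genes of acyl-CoA activation and glycerolipid synthesis, 6 fell on each diet, and 2 and 1 rose. *Lpcat1*, which makes the dipalmitoyl lecithin of surfactant, fell by 1.71 ± 0.11 (limma adjusted p = 1.49e-07) and 1.88 ± 0.11; it is also in the type 2 cell list. *Acsl1* fell by 0.70 ± 0.10 and 0.55 ± 0.10, and *Chpt1*, of phosphatidylcholine synthesis, by 0.43 ± 0.07 and 0.41 ± 0.07.

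By diet in room air, none of the 62 neighbouring genes passed (limma), beside 0.150% of all tested genes. An unadjusted p under 0.05 was found for 5 of 62, or 8.06%, against 12.2% of all tested genes. The largest by the naming rule were *Elovl6* at −0.49 ± 0.15 (limma adjusted p = 0.211) and *Cbr4* at 0.44 ± 0.09 (limma adjusted p = 0.0861), which passed with the block (0.0446). *Acsl4*, which prefers arachidonate, was at −0.31 ± 0.10 (limma adjusted p = 0.237) and *Dgat1* and *Agpat2*, of triglyceride synthesis, at −0.26 and −0.21. The other named genes lay within 0.26 of 0. They were *Hlcs* (0.26), *Acsf3* (0.22), *Elovl7* (−0.20), *Elovl5* (−0.18), *Me1* (−0.15), *Usf1* and *Mbtps1* (0.14 each), *Nr1h2* (0.12), *G6pdx* (0.10), *Prkab2* (−0.10), *Prkab1* (0.09), *Mdh1* (0.08) and *Mcat* (−0.07).

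In order of level on 10% fat in room air the genes ran *Scd1* (653 RPKM), *Scd2* (182), *Fasn* (77.5), *Acly* (74.6), *Srebf1* (30.5), *Acaca* (15.2), *Acss2* (13.0), *Thrsp* (10.1), *Acacb* (2.53) and *Mlxipl* (0.948). The libraries of *Fasn* and *Acly* overlapped there, as did those of *Acaca* and *Acss2* and of *Acss2* and *Thrsp*. On 60% fat in room air *Acly* (69.7) stood above *Fasn* (54.5), and *Acss2* (13.4) and *Acaca* (12.0), like *Acacb* (3.57) and *Thrsp* (3.42), overlapped. Under oxygen on 60% fat the order was *Scd1* (231), *Scd2* (141), *Acly* (35.4), *Srebf1* (28.7), *Fasn* (20.8), *Acss2* (8.27), *Acaca* (8.03), *Acacb* (1.18), *Thrsp* (0.582) and *Mlxipl* (0.380). *Acss2* and *Acaca* overlapped again. On 10% fat under oxygen *Srebf1* (28.2) and *Fasn* (26.7) overlapped, as did *Acss2* (10.3) and *Acaca* (8.79) and *Acacb* (1.38) and *Thrsp* (1.05). *Fasn* stood below *Srebf1* in all 3 libraries on 60% fat under oxygen and above it in all 6 in room air. In RefSeq 5 members lie over other genes: *Acss2* over *Acss2os*, *Acaca* over *Tada2a* and a pair of predicted genes, *Srebf1* over *Rai1* and a pair of miRNAs, *Acly* over *Mir7116* and *Scd2* over *Mir5114*. The sources used here do not give whether reads were counted by strand.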

How the data were processed

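RNA of 12 mouse lung libraries in 4 groups of 3 was analysed. The authors deposited RPKM in one table with a status per value; the tools behind it were bcl2fastq 2.19 and TopHat2 2.0.11, per the submitters' processing notes. The sources used here do not name the program that gave RPKM, read counts were not used here, and rough depths rest on a length offset of 200 bases chosen on these data. Of 20793 entries, 208 marked as low data were left out and 85 failed estimates, none of a member, were treated as missing. limma 3.58.1 in R 4.3.3 fitted group means to log2(RPKM + 0.5) of 13324 genes (RPKM of at least 1 in at least 3 libraries), with a trend, two-sided tests and Benjamini-Hochberg adjustment at 0.05. With 8 residual degrees of freedom only differences well above the replicate spread can pass.

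Deviations from group means of libraries with the same replicate number in one exposure correlated at 0.293 to 0.486 (6 pairs), and those with the same number in other exposures at −0.131 to 0.22 (12 pairs), so the number was also fitted as a block within exposure. Ratios were tested by exact permutation. From each neighbouring list the 3 genes with the smallest p under oxygen on 60% fat and the 3 by diet in room air were named, and 5 genes by each measure of likeness to *Fasn*. The members, lists and tests were chosen with earlier results of these data known. The fits were tested on simulated data. Alternatives were other pseudocounts, filters, scalings and variance models, the block, and each library left out. Promoters came from RefSeq on GRCm38.p6 and shared transcript stretches from GENCODE.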

Additional observations from a re-analysis of the deposited data

Results flagged for a closer look

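The share of *Scd1* in *Scd1* plus *Scd2* went in opposite directions by diet in the 2 exposures. In room air every library on 60% fat was below every library on 10% fat (66.4% to 66.8% against 71.8% to 83.8%), and under oxygen every library on 60% fat was above every library on 10% fat (58.5% to 65.1% against 54.4% to 58.2%). The diet difference in room air minus that under oxygen was −16.6 points; this difference between exposures was not tested.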

How the results depend on the processing

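Under the alternatives 4436 of 4500 values of members and named genes kept their direction where called and their side of the threshold, 33 lost and 31 gained a call, and none that was called changed sign. Members called in the oxygen comparisons ranged from 6 to 9 on 60% fat and from 4 to 7 on 10% fat; the lowest of both came with a stricter filter that tests 7 members. By diet in room air the count of 0 became 1 with quantile normalization, 2 with sample weights, 1 with the replicate block over all libraries and 3 with the block within exposure, and was 0 to 1 with a library left out. Averaged over exposures it became 2 with sample weights and 1 with the block; the interaction had 1 with sample weights and 0 to 1 with a library left out. *Fasn* passed by diet in room air with the block (−0.50, limma adjusted p = 0.0364), and averaged over exposures with the block (−0.43, 0.0312) and with sample weights (−0.48, 0.0335). Beyond *Fasn*, *Scd1*, *Thrsp* and *Cbr4*, the replicate block within exposure changed no call of a member or named gene. The *Acacb* share under oxygen ran from −5.72 to −4.49 points with a library left out, and passed (adjusted 0.0450) without replicate 3 of 10% fat in room air. The diet difference of the *Fasn* to *Srebf1* ratio (−0.438) did not pass with the replicate block as sign flips within pairs, an alternative chosen after seeing the data (adjusted p = 0.0938; 6 pairs cannot pass after adjustment unless several ratios do). The cause of these changes was not tested. Over all genes, calls by diet in room air were 20, against 466 with the block within exposure, 60 with the block over all libraries, 441 with sample weights, 66 with quantile normalization, 36 with median-ratio scaling, 12 with no filter, 1 with the libraries of the comparison alone, and 2 to 353 with a library left out (353 without replicate 2 of 60% fat in room air). Depth limits *Thrsp* and *Mlxipl* most.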
